A study of Homo sapiens with 17 samples.

Results

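The miR-26 family of microRNAs comes from 3 hairpins, MIR26A1, MIR26A2 and MIR26B. They were located by position: every deposited alignment of 18 to 26 nucleotides (nt) that lay inside 1 of 3 windows on the hairpin's strand was taken. The windows, on build hg19, were chr3:38010895-38010971 (plus strand) for MIR26A1, chr12:58218392-58218475 (minus strand) for MIR26A2 and chr2:219267369-219267445 (plus strand) for MIR26B. They held 125 distinct alignments, of 5933012 distinct alignments of that length in the whole series. In GENCODE version 29, an annotation of build GRCh38, each hairpin lay inside transcripts of a gene on its own strand, CTDSPL for MIR26A1, CTDSP2 for MIR26A2 and CTDSP1 for MIR26B, and overlapped 0 of their exons, so all 3 were intronic there. The main pattern was one of position within the 5p arm, in a split by 5′ end that was chosen after the values had been seen. Fragments of miR-26a that began 1 nt inside the annotated 5′ end had higher ratios than fragments that began at that end. They were 6.67- to 7.21-fold higher at 13 d and 11.4- to 11.7-fold higher at 31 d, while at 3 d no such difference passed the test. The test was thus not planned beforehand, and it rests on 3 shared 3′ ends at MIR26A1 and 4 at MIR26A2.

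The cells were K562, a human erythroleukemic line, carrying a short hairpin RNA against Drosha. Per the labels' protocols they were given 1 µg/mL doxycycline (Dox), or water as the control, for 3, 13 or 31 d, each replicate being a separate culture, and small RNA libraries were made from their total RNA. There were 8 Dox libraries and 8 water libraries, in 2 pairs at 3 d (replicates 1 and 3), 3 pairs at 13 d and 3 pairs at 31 d, so every group carried the same hairpin construct and groups differed in Dox and in time. The labels do not say whether the line was 1 clone, and 1 untreated library was not analysed here. Each pair gave 1 deposited table, in which every alignment has 1 ratio, the scaled value in 1 library over that in the other. The sources do not say which library is the numerator, so a log2 ratio above 0 means only that the numerator was higher, and no direction with respect to Dox is given. It is assumed that the 8 tables do not differ in this.

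MicroRNA hairpins are cut out of longer transcripts in the nucleus by the Microprocessor, formed by the nuclease Drosha and its partner DGCR8. Dicer then removes the loop, and 1 of the strands, called the 5p or the 3p arm by its side of the hairpin, is loaded into an Argonaute protein. On a 5p arm the Drosha cut sets the 5′ end, and the 5′ end sets the seed, the stretch from base 2 to base 8 through which targets are recognised. In the miR-26 family the 5p arm is the usual guide and the 3p arm the passenger. The hosts encode small C-terminal domain phosphatases that act on the retinoblastoma protein, and miR-26a is best known for targeting the messenger RNA of EZH2, a histone methyltransferase, and for lowering proliferation.

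The hairpins are shown because all results below are read by position within them. RefSeq gives their RNA on GRCh38, and each had the length of its hg19 window, 77, 84 and 77 nt. Capitals mark the annotated mature arms, the 5p arm coming before the loop.
MIR26A1: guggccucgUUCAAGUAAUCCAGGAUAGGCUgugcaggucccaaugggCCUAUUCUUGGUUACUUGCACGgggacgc
MIR26A2: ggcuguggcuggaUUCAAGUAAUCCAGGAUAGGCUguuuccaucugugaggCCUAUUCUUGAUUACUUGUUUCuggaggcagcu
MIR26B: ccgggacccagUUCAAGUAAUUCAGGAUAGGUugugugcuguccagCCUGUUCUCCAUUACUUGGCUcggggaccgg

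The mature sequences follow with the seed in capitals, grouped by arm.
hsa-miR-26a-5p, from MIR26A1 and MIR26A2: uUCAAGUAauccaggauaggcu
hsa-miR-26b-5p, from MIR26B: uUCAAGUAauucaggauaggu
hsa-miR-26a-1-3p, from MIR26A1: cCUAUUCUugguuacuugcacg
hsa-miR-26a-2-3p, from MIR26A2: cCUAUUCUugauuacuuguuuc
hsa-miR-26b-3p, from MIR26B: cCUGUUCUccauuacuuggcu
The 5p arms of all 3 hairpins shared 1 seed. Counted from 1 at the 5′ end, miR-26b-5p differed from miR-26a-5p by C11U and C21U, both outside the seed. The 3p arms of MIR26A1 and MIR26A2 also shared a seed and differed by G11A, C19U, A20U, C21U and G22C, while A4G set the seed of miR-26b-3p apart from both. On hg19 the 5p arms lay at chr3:38010904-38010925, chr12:58218441-58218462 and chr2:219267380-219267400, and the 3p arms at chr3:38010943-38010964, chr12:58218403-58218424 and chr2:219267415-219267435, in the order MIR26A1, MIR26A2, MIR26B.

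A 5p fragment that begins 1 nt further in has another seed, shown in capitals for the sequences that end at the mature 3′ end.
miR-26a, 5′ end 1 nt further in: uCAAGUAAuccaggauaggcu
miR-26b, 5′ end 1 nt further in: uCAAGUAAuucaggauaggu
The shifted seed, CAAGUAA, belonged to 0 of the 2370 human mature microRNA names in the RefSeq table, whereas UCAAGUA belonged to 4, hsa-miR-26a-5p, hsa-miR-26b-5p, hsa-miR-1297 and hsa-miR-4465.

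MIR26A1 had 36 distinct alignments, of which 32 lay in the 5p arm and 4 in the 3p arm, an alignment being given to an arm when its 5′ end fell within 8 nt of the mature one. MIR26A2 had 53, with 35 in the 5p arm, 14 in the 3p arm and 4 in neither. MIR26B had 36, with 26 in the 5p arm and 10 in the 3p arm. No antisense alignment was listed in any window. A ratio above 0 in all 8 tables, which the log2 scale needs, was found for 13 alignments of MIR26A1, 17 of MIR26A2 and 12 of MIR26B, and 38 of these 42 were in 5p arms. The 3p arm of MIR26A1 had none: its mature alignment was not listed at 3 d in replicate 3, so that arm is described and not fitted.

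MIR26A1 and MIR26A2 are not independent observations of the 5p arm. From the mature 5′ end their sequences are the same up to 24 nt, so such a read fits both. For the 10 alignments of identical sequence, the log2 ratios at both positions differed by a median of 0.0821 and by up to 1.32, and for lengths of the mature arm and 1 nt either side by a median of 0.0323. Only 1 of 80 pairs of values was identical, and the rule for placing a read that fits several positions is not stated in the sources used here. Whether such a read is listed at both positions was not tested, and values at both are given below as 1 sequence read at 2 positions.

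The tables were shifted against each other. Over 707 genome-wide features the 3 d tables had median log2 ratios of 0.80 (replicate 1) and 2.04 (replicate 3), the 13 d tables -0.01, -0.44 and -1.37, and the 31 d tables -0.30, -1.22 and -0.73. A feature was a stack of at least 3 alignments of 18 to 26 nt that shared a 5′ end, or an arm of the 3 hairpins, and its value was the median over its alignments. Replicate 3 of 3 d stood highest of the 8. Tables listed 871027 to 3428554 alignments, a count of lines and not of reads, and read depth per alignment was not used. DROSHA messenger RNA, the target of the short hairpin, was not analysed here.

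The 5p arm of MIR26A1 had log2 ratios of -0.18 and 2.24 at 3 d, then -0.09, 0.15 and -1.15 at 13 d, then -0.27, -0.41 and 0.31 at 31 d. In MIR26A2 the 5p arm had -0.10 and 2.19, then -0.08, 0.16 and -1.16, then 0.04, -0.01 and 0.41. The 5p arm of MIR26B had 0.01 and 1.77, then -0.13, 0.56 and -1.20, then -0.47, 0.19 and 0.09. In all 3 hairpins replicate 3 of 3 d was the highest table and replicate 3 of 13 d the lowest, and the other 6 tables lay between -0.47 and 0.56. Over the pairs of a day, the 5p mean of MIR26A1 was 1.03 ± 1.71 (SD, n = 2) at 3 d. Its 13 d mean was -0.36 ± 0.69 (n = 3) and its 31 d mean -0.13 ± 0.38 (n = 3). That of MIR26B was 0.89 ± 1.24, -0.26 ± 0.89 and -0.06 ± 0.35 on the same days.

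Set against the median of their table, the 5p arms lay mostly below it at 3 d and mostly above it at 31 d. Relative to the table median the 5p arm of MIR26A1 stood at -0.98 and 0.20 at 3 d, then at -0.08, 0.58 and 0.22 at 13 d, then at 0.03, 0.81 and 1.04 at 31 d. That of MIR26B stood at -0.80 and -0.27, then -0.12, 1.00 and 0.18, then -0.17, 1.41 and 0.82. Among the 707 features, ordered from the lowest, the 3 5p arms ranked 237 to 264 at 3 d and 440 to 480 at 31 d. These positions are a description. After centring each table on its median over all features, limma called none of the 5p arms at any day or between days. The lowest adjusted p there was 0.0631 (MIR26A2 5p, 31 d, at 0.90). After centring on stacks of 20 to 24 nt, limma called only the 5p arm of MIR26A2 at 31 d (1.10, adjusted p 0.0244). The share of all features called after either centring was not counted, so these counts have no background beside them. The 5p arm of MIR26A1, with the same mature sequence, stood at 0.83 there (limma, adjusted p 0.0787). An arm value also takes in fragments with other 5′ ends. Without centring, the mature 5p alignment of MIR26A2 by itself stood at -0.50 at 31 d, and the arm at 0.15. Over the alternatives of the fit by alignment, centred and uncentred together, that alignment stood between -0.57 and 0.34.

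The passenger arms spread further. The 3p arm of MIR26A2 had log2 ratios of 1.17 and 3.54 at 3 d, then -1.04, -0.62 and -0.56 at 13 d, then -1.57, -0.85 and -0.01 at 31 d. The 3p arm of MIR26B had 1.16 and 3.46, then -1.89, 0.78 and -0.27, then -0.996, 0.64 and -0.05. In both arms the 3 d tables lay above all 6 later tables. The median of all 707 features did the same, with 0.80 and 2.04 at 3 d and -0.01 to -1.37 later. The share of features that did so was not counted. Each of these arm values is the median of only 2 alignments, of 21 and 22 nt, which could stand far apart. At 13 d, those of MIR26A2 had 1.16 and -2.28 in replicate 3, and those of MIR26B had -0.89 and -2.89 in replicate 1. The mature 3p alignment of MIR26A1 had 2.62 at 3 d in replicate 1, then -0.47, 0.74 and -2.70, then -2.42, -1.53 and 1.30, with its single 3 d value also above the later ones.

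**Figure D1:**
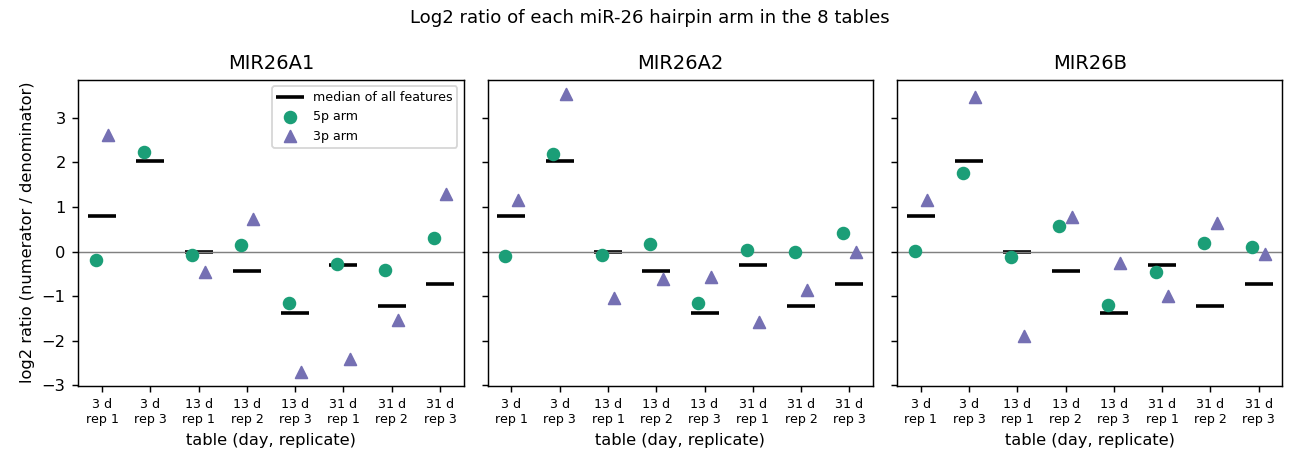
Log2 ratio (vertical axis) of the 5p arm (circles) and 3p arm (triangles) of each hairpin in the 8 tables (horizontal axis, by day and replicate), with the median of all 707 features as a black bar. Each point is 1 table, so there is no error bar; the 3p points of 3 d, from 1.16 to 3.54, lie above their 5p points, and the MIR26A1 3p arm has no point at 3 d in replicate 3.

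Tested against 0 with limma over all 707 features, 2 of the 5 fitted arms passed at 3 d, both higher. They were the 3p arm of MIR26A2, at 2.36 ± 0.71 (SE) with an adjusted p of 0.00990, and the 3p arm of MIR26B, at 2.31 ± 0.73 with an adjusted p of 0.0132. In the whole fit 40.2% of features were called higher at 3 d, where the median feature stood at 1.40, so calls at 3 d were common. The 5p arms stood at 0.89 to 1.04 and did not pass. At 13 d, where limma called 54.9% of features in either direction, and at 31 d, where it called 46.3%, 0 of the 5 arms passed, 0 had an unadjusted p under 0.05, and the adjusted p ranged from 0.288 to 0.730 and from 0.253 to 0.943.

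Between days the same 2 arms passed. The 3p arm of MIR26A2 was lower at 13 d than at 3 d (limma difference -3.10, adjusted p 0.00350) and lower at 31 d than at 3 d (limma difference -3.17, adjusted p 0.00277). For the 3p arm of MIR26B the limma differences were -2.77 (adjusted p 0.0110) and -2.45 (adjusted p 0.0247). Of all features, 48.5% were called lower from 3 d to 13 d and 50.2% from 3 d to 31 d, and the median feature moved by -1.94 and -2.12. Between 13 d and 31 d limma called 0 arms, with 0 at an unadjusted p under 0.05, and 0% of features. After centring each table on its median over all features, 0 arms passed at 3 d or between days, and the 3p arm of MIR26A2 at 3 d stood at 0.94 (limma, adjusted p 0.322). The share of features called after centring was not counted. Without replicate 3 of 3 d, 0 arms passed in these 3 comparisons, and without replicate 1 of 3 d, 4 passed at 3 d and for 13 d - 3 d. Without replicate 1 of 13 d, 1 arm passed for 13 d - 3 d, and without replicate 1 of 31 d, 1 passed for 31 d - 3 d.

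The alignment that spans exactly the mature sequence was also read by itself. That of miR-26a-5p at MIR26A1 had 0.68 and 2.59 at 3 d, then -0.57, -0.37 and -1.76 at 13 d, then -0.73, -0.41 and -0.24 at 31 d. That of miR-26b-5p had 0.20 and 1.85, then 0.31, 0.29 and -0.87, then -0.41, 0.50 and 0.07. For miR-26a-2-3p the values were 1.29 and 3.90, then -0.87, -0.12 and -2.28, then -1.50, -1.23 and -0.33, so its 3 d tables lay above all later ones. The median of all alignments of 22 nt did the same, with 0.85 and 1.78 at 3 d and -0.15 to -1.79 later. In a limma fit over 11342 alignments, miR-26a-2-3p alone of the 5 mature alignments fitted was called, higher at 3 d (2.59, adjusted p 0.0436) and lower at 13 d and 31 d than at 3 d (-3.68, adjusted p 0.0216, and -3.61, adjusted p 0.0221). At 3 d 21.4% of alignments were called higher, and 29.2% and 33% were called lower from 3 d to 13 d and to 31 d. At 13 d and 31 d limma called 0 of the 5, with 0 at an unadjusted p under 0.05, against 32.1% and 21.6% of alignments in either direction. All 3 calls were lost on centring and without replicate 3 of 3 d. The 3 d call was also lost without replicate 2 of 13 d, replicate 1 of 31 d or replicate 3 of 31 d. That for 13 d - 3 d was lost without replicate 3 of 13 d, and that for 31 d - 3 d without replicate 1 or 2 of 31 d. Without replicate 1 of 3 d, 3 mature alignments were called for 13 d - 3 d.

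The 5p fragments differed by the position of their 5′ end. The split by 5′ end was chosen after the values had been seen. At MIR26A1, all 9 alignments that began at the mature 5′ end had a ratio above 0 in all 8 tables, as did 3 of the 7 that began 1 nt further in. At MIR26A2 the counts were 9 of 9 and 4 of 7, and at MIR26B 8 of 9 and 1 of 5. Ends 1 nt before the mature end left 1 alignment in each hairpin, and ends 2 nt in left 1, at MIR26A2.

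At the mature 5′ end, MIR26A1 had median log2 ratios of -0.18 and 1.96 at 3 d, then -0.57, -0.10 and -1.31 at 13 d, then -0.36, -0.52 and -0.05 at 31 d. Beginning 1 nt further in, it had -0.38 and 2.60, then 1.78, 2.41 and 1.31, then 2.41, 2.58 and 3.30. MIR26A2 gave the same picture, with -0.10 and 1.94, then -0.14, 0.03 and -1.30, then -0.70, -0.39 and -0.08 at the mature end. Its fragments 1 nt further in had -1.41 and 1.87, then 2.02, 2.17 and 1.69, then 2.28, 3.16 and 3.01. How often neighbouring ends elsewhere stood apart in this way was not counted. At 13 d and 31 d every table had the shifted end above 1 and the mature end near or below 0, and the ranges of these medians did not overlap between the 2 ends. At 3 d they did overlap.

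**Figure D2:**
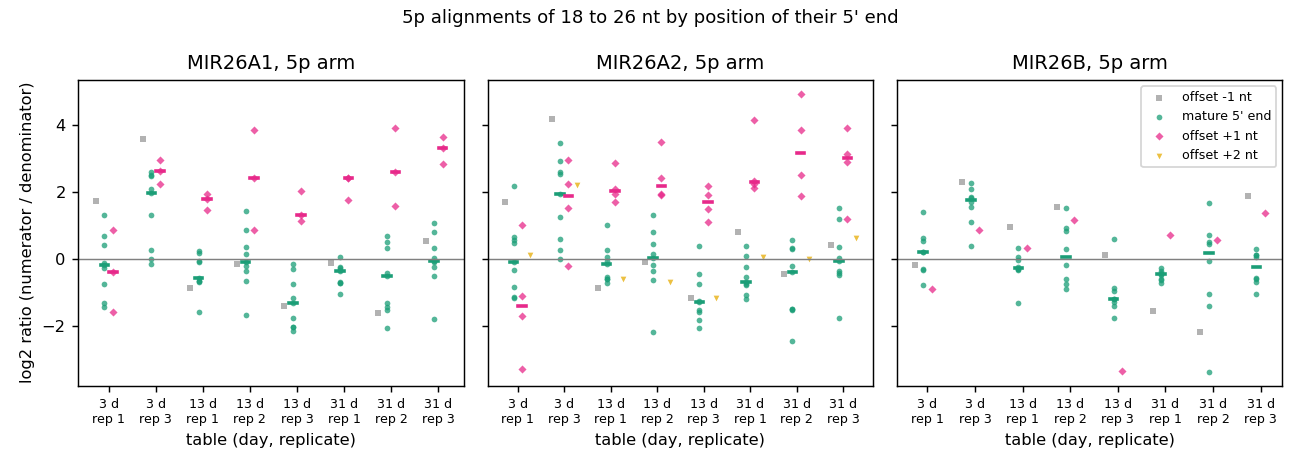
Log2 ratio (vertical axis) of every 5p alignment of 18 to 26 nt with a ratio above 0 in all tables, by table (horizontal axis) and by the position of its 5′ end relative to the mature one (colour and marker), with a bar at the median where there are at least 3 alignments. In MIR26A1 and MIR26A2 the alignments 1 nt further in (diamonds) stand apart from those at the mature end (circles) from 13 d on, with medians of 1.31 to 3.30; in MIR26B the single such alignment falls between -3.33 and 1.37.

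A limma fit over 1078 single 5′ ends called the shifted end higher than 0 at both positions on both later days. At 13 d it stood at 1.83 ± 0.61 (SE, adjusted p 0.0206) for MIR26A1 and 1.96 ± 0.62 (adjusted p 0.0149) for MIR26A2, with 12.4% of ends called higher. At 31 d it stood at 2.76 ± 0.61 (limma, adjusted p 0.00161) and 2.82 ± 0.62 (adjusted p 0.00151), with 8.26% of ends called higher, and these ends ranked 28 and 26 from the highest of the 1078. The mature end was not called at any day, where limma called 284 (3 d), 447 (13 d) and 388 (31 d) of the 1078 ends in either direction. From 3 d to 31 d the shifted end of MIR26A2 rose by 2.59 (limma, adjusted p 0.0384), where 5.84% of ends were called higher. That of MIR26A1 differed by 1.65 (limma, adjusted p 0.172) and did not pass. At 13 d both calls were lost without replicate 2 of that day (limma adjusted p 0.153 and 0.0845), and the rise of MIR26A2 was lost without replicate 1 of 3 d (difference 0.95, limma adjusted p 0.444), without replicate 2 of 31 d (adjusted p 0.0915) and without replicate 3 of 31 d (adjusted p 0.0915). After centring each table over all 5′ ends, the shifted end of MIR26A1 passed from 3 d to 31 d (3.53, limma adjusted p 0.00492), and both hairpins passed from 3 d to 13 d (2.22, adjusted p 0.0365, and 3.23, adjusted p 0.00869).

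Single alignments were split in the same way. In the limma fit over alignments, all 7 that began 1 nt further in at MIR26A1 and MIR26A2 were called higher at 31 d, from 2.38 to 3.41, where 4.5% of alignments were called higher. Those of 21, 22 and 23 nt have the same sequence at both positions. The 7 are therefore not 7 separate sequences, and the counts below include such repeats. None of the other 35 member alignments was called at 31 d, and they ranged from -1.62 to 0.89. At 13 d, 4 of the 7 (those of 21 and 23 nt at both positions) and 0 of the 35 were called higher, against 11.8% of alignments. At 3 d, 0 of the 7 and 3 of the 35 were called higher, namely miR-26a-2-3p and the 23 nt alignments that began 1 nt before the mature 5p end of MIR26A1 and MIR26A2. The 31 d count fell to 4, 1 or 3 of 7 without replicate 1, 2 or 3 of that day, and the 13 d count to 0, 0 or 2. The 21 nt alignment at chr3:38010905-38010925, which is the mature miR-26a sequence less its 5′ base, had 0.87 and 2.96 at 3 d, then 1.93, 2.41 and 2.01 at 13 d, then 2.41, 3.89 and 3.30 at 31 d, and its lowest table at 31 d was above the highest of the mature 22 nt alignment on that day.

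Ends on either side of it had other values. The 23 nt alignment of MIR26A1 that began 1 nt before the mature end had 1.73 and 3.58 at 3 d, then -0.85, -0.15 and -1.41 at 13 d, then -0.11, -1.61 and 0.52 at 31 d. The 20 nt alignment of MIR26A2 that began 2 nt in had 0.10 and 2.19, then -0.59, -0.68 and -1.16, then 0.04, -0.01 and 0.62. Both were highest at 3 d in replicate 3 and below 1 in all 6 later tables.

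Comparing neighbouring 5′ ends within a table removes a shift that is the same for all alignments of that table, but not one that varies with length, since at a shared 3′ end the inner fragment is 1 nt shorter. Over all alignments, the median at 21 nt and at 22 nt was 0.72 and 0.85 at 3 d in replicate 1 and -0.94 and -1.68 at 31 d in replicate 2. Over all 292 genome-wide pairs compared in this way, each with the same 1 nt difference in length, the 3 d median of the difference was -0.12, that of 13 d 0.10 and that of 31 d 0.17. For each pair of ends 1 nt apart, the log2 ratio at the outer end was subtracted from that at the inner end for alignments with the same 3′ end, and the median over at least 3 shared 3′ ends was taken. For MIR26A1 the 3 d tables gave -0.80 and 0.36, those of 13 d gave 2.10, 2.79 and 3.32, and those of 31 d gave 3.12, 4.09 and 3.33. For MIR26A2 it was -1.58 and -0.24, then 2.68, 2.66 and 3.21, then 3.12, 4.11 and 3.42. All 6 later tables were above both 3 d tables in each hairpin. The share of the 292 pairs that did so was not counted.

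In a limma fit over the 292 such pairs genome-wide, MIR26A1 stood at 2.74 ± 0.34 (SE, adjusted p 0.000946) at 13 d and 3.51 ± 0.34 (adjusted p 0.000215) at 31 d, which are ratios 6.67-fold and 11.4-fold higher at the inner end. MIR26A2 stood at 2.85 ± 0.32 (limma, adjusted p 0.000816) and 3.55 ± 0.32 (adjusted p 0.000215), or 7.21-fold and 11.7-fold. At 13 d 3.77% of pairs were called higher and at 31 d 5.48%. In order of size the 2 hairpins were ranks 1 and 3 of 292 at 13 d and ranks 1 and 2 at 31 d. At 3 d the values were -0.22 (limma, adjusted p 0.856) and -0.91 (adjusted p 0.256), neither called, and 1.37% of pairs were called in either direction. The value of MIR26A2 there had an unadjusted limma p of 0.0437 and ranked 262 of 292 from the highest.

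The rise with time passed the same test. From 3 d to 13 d the difference grew by 2.96 (limma, adjusted p 0.0204) for MIR26A1 and 3.76 (adjusted p 0.00788) for MIR26A2, with 1.37% of pairs called higher. From 3 d to 31 d it grew by 3.73 (limma, adjusted p 0.00327) and 4.46 (adjusted p 0.00184), with 4.79% called higher. From 13 d to 31 d neither was called, with 0% of pairs called in either direction and 0 of the 2 at an unadjusted p under 0.05. The 13 d - 3 d call for MIR26A1 was lost without replicate 1 of 3 d (2.38, limma adjusted p 0.161), without replicate 2 of 13 d (2.93, adjusted p 0.0692) and without replicate 3 of 13 d (2.66, adjusted p 0.0842). Leaving out both replicate 3 of 13 d and replicate 2 of 31 d ended the 13 d - 3 d call of both hairpins. The calls at 13 d, at 31 d and for 31 d - 3 d passed in every alternative run. Because both hairpins carry 1 sequence here, these are 1 result at 2 positions.

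**Figure D3:**
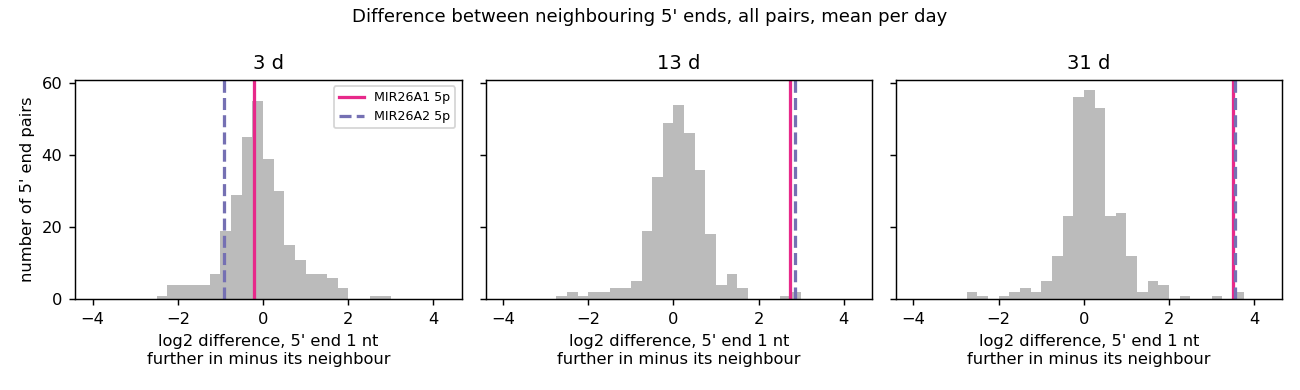
Number of 5′ end pairs (vertical axis) by the mean log2 difference between the inner end and its neighbour (horizontal axis), for the 292 pairs at 3, 13 and 31 d, with MIR26A1 (solid line) and MIR26A2 (dashed line). At 3 d the lines fall at -0.22 and -0.91, ranks 169 and 262 of 292 from the highest. They fall at the upper edge at 13 d, at 2.74 and 2.85, and at 31 d, at 3.51 and 3.55.

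MIR26B had only 1 alignment 1 nt further in that could be followed, the 21 nt alignment at chr2:219267381-219267401. Its log2 ratios were -0.90 and 0.86 at 3 d, then 0.32, 1.17 and -3.33 at 13 d, then 0.72, 0.57 and 1.37 at 31 d, and limma over all alignments did not call it (31 d mean 0.89, adjusted p 0.474). Its one shared 3′ end lay 1 nt past the mature 3′ end, so that 21 nt was compared with 22 nt. The difference from the mature 5′ end there was -0.59 and -0.68, then 0.56, 0.25 and -2.06, then 1.00, 0.64 and 1.26. For MIR26A1 the 3′ end 1 nt past its own mature one gave -1.48 and 0.64, then 2.10, 1.50 and 3.32, then 2.80, 4.09 and 3.33. As its mature arm is 1 nt longer, 22 nt was compared with 23 nt there. In each later table the value of MIR26A1 was above that of MIR26B, by a mean of 2.44 ± 0.89 (SD, n = 3) at 31 d.

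Over all 8 tables MIR26A1 exceeded MIR26B by 1.99 ± 1.82 (SD), in 7 of 8 tables, with a two-sided exact sign-flip p of 0.0156. MIR26A2 exceeded it by 2.18 ± 1.83, also in 7 of 8, with an exact sign-flip p of 0.0234. Adjusted over the 11 differences tested, both sign-flip p-values became 0.129. With these 3′ ends, a difference between miR-26a and miR-26b in this respect was thus not shown at the threshold of 0.05. The fragments compared were 1 nt longer for miR-26a than for miR-26b. Those of 21 and 22 nt, the lengths used for miR-26b, were not tested in this way for miR-26a, so the result holds only for the 3′ ends used. The smallest p that 8 tables allow is 0.00781, and a single difference at that p would not pass after adjustment over 11.

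The other 9 differences, between arms within a table, gave no call. The 5p arm of MIR26B minus that of MIR26A1 was 0.03 ± 0.35 (SD, n = 8 tables, exact sign-flip p 0.836), and differed by at most 0.603 in any table. The 5p arm of MIR26A1 minus that of MIR26A2 was -0.11 ± 0.16 (exact sign-flip p 0.0859, adjusted 0.315), the lowest p of the 9. In MIR26A2 the 5p arm minus the 3p arm was -1.27 and -1.35 in the 3 d tables, 0.96, 0.78 and -0.60 in those of 13 d, and 1.62, 0.84 and 0.43 in those of 31 d, with a mean over the 8 of 0.18 ± 1.11 (exact sign-flip p 0.664). In MIR26B it was -1.16 and -1.69, then 1.75, -0.22 and -0.93, then 0.53, -0.46 and 0.14 (mean -0.25 ± 1.08, exact sign-flip p 0.531). In MIR26A1 the 7 tables that list the 3p arm gave 0.12 ± 1.71 (exact sign-flip p 0.891). At 3 d the 3p arm was above the 5p arm in each hairpin and table that had both, and this was seen in the values and not tested by itself.

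Values also varied with fragment length. Among fragments at the mature 5′ end of MIR26A1, those of 24 nt exceeded those of 20 nt by 1.73 and 2.49 at 3 d. At 13 d the differences were -0.29, -0.22 and -0.56, and at 31 d -0.78, -1.76 and 0.36. MIR26B gave 1.38 and 1.67, then 0.39, 2.25 and -0.47, then -0.23, -1.84 and 0.90. Over all alignments the 3 d medians differed by -0.17 and -0.57, the 13 d medians by 0.03, 0.57 and -0.83, and the 31 d medians by 0.28, -1.92 and 0.06. At 3 d the miR-26 fragments of 24 nt thus stood above those of 20 nt where alignments at large stood below, and at 31 d in replicate 2 the longer ones stood lower in all. The fragments 1 nt further in and those at the mature end were compared at the same 3′ end and so differ by 1 nt in length.

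**Figure D4:**
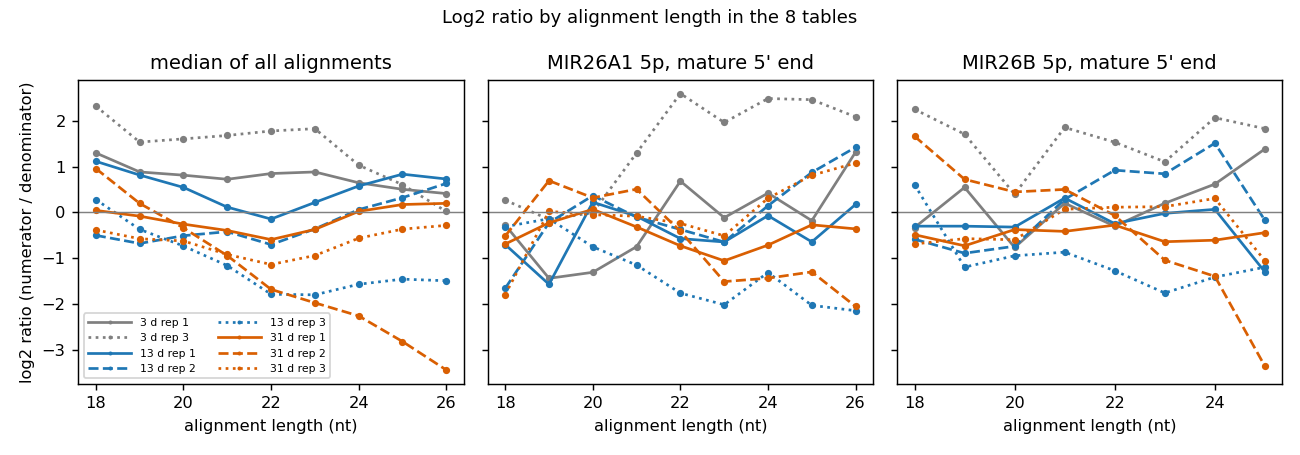
Log2 ratio (vertical axis) by alignment length in nt (horizontal axis) for the median of all alignments (left) and for the single alignment of each length at the mature 5p 5′ end of MIR26A1 (middle) and MIR26B (right), 1 line per table, coloured by day. At 3 d in replicate 3 the MIR26A1 line goes from -0.01 at 20 nt to 2.49 at 24 nt, while the median of all alignments goes from 1.60 to 1.03.

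Longer fragments within the windows were few. MIR26A1 had 4 distinct alignments over 26 nt, the longest of 32 nt, MIR26A2 had 16, up to 41 nt, and MIR26B had 11, up to 36 nt. Of these 1, 12 and 7 were of 30 nt or longer. No alignment listed in any table was longer than 42 nt, so none could span a whole hairpin of 77 or 84 nt. Outside the windows, within 1000 nt on the same strand, 1 distinct alignment of any length was listed beside MIR26A1, 178 beside MIR26A2 and 72 beside MIR26B. Their ratio was 0 in 96.8% of 190 listings at MIR26A2 and 96.1% of 76 at MIR26B. Over all alignments listed in a table, the share with a ratio of 0 was 73.2% to 93.1%. Of the alignments beside the hairpins, 0 had a ratio above 0 in all tables, and no day could be compared.

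The stacks whose log2 ratios followed the 5p arm of MIR26A1 most closely over the 8 tables, of 702 at least 1 kb away, were at chr9:131007061-131007084 (minus strand, Pearson r = 0.964), chrX:133304273-133304296 (minus strand, r = 0.955) and chr3:49058102-49058127 (minus strand, r = 0.952). For the 5p arm of MIR26B they were at chr7:130561506-130561529 (minus strand, r = 0.955), chr3:49058102-49058127 again (r = 0.951) and chr9:97847547-97847571 (plus strand, r = 0.942). The median r over the 702 stacks was 0.624 and 0.562. All points share the 8 tables and their shifts, so these are a description. The stack on chr3 had 0.77 and 3.03 at 3 d, then -0.09, 0.92 and -0.54 at 13 d, then 0.04, 0.58 and 1.03 at 31 d, with the same highest and lowest tables as the 5p arms.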

How the data were processed

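The aligner was Bowtie2 2.2.9 and the build hg19 (GRCh37), per the submitters' processing notes. The value used was the deposited ratio per alignment, which the authors computed from values they had scaled to length and library. The 32 other value columns name no library and were not used, beyond checking that the ratio is a quotient of scaled values, so no read count, depth, counting interval or floor is given, and the depth behind each value is unknown here. The tables carry no header.

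Log2 ratios were fitted with limma 3.58.1 (R 4.3.3), using robust empirical Bayes, 1 mean per day over all 8 tables, Benjamini-Hochberg at 0.05 over all features, alignments, 5′ ends or end pairs, with a ratio above 0 in every table required, since 0 has no logarithm. Stacks up to 8 nt apart were merged. Standard errors and p-values come from this model, which shares spread over features, and overlapping features are not independent; the fit was tested on simulated data. Differences between arms were tested by two-sided exact sign flips over tables. Hairpin and mature sequences are from RefSeq (GRCh38), placed by position within the hairpin; no coordinates were converted. Sequences were matched for all 3 hairpins and 6 arms.

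The members and lists were chosen with earlier results of these data known. Named were all arms, their mature alignments with the neighbouring lengths, and the 3 stacks most like each of the 5p arms of MIR26A1 and MIR26B; fits by 5′ end, end pairs and single shifted alignments were added after values were seen. Alternatives were centring, leaving out tables, a replicate block, each day alone, other lengths, means and other arm rules.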

Additional observations from a re-analysis of the deposited data

Results flagged for a closer look

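Each of the following differed between days by the limma contrast itself. For the arms, the difference 13 d - 3 d was -3.10 for the 3p arm of MIR26A2 and -2.77 for that of MIR26B, and 31 d - 3 d was -3.17 and -2.45. For the mature alignment of miR-26a-2-3p the same differences were -3.68 and -3.61. The shift between tables moved with these: the median of all 707 features differed by -1.94 and -2.12, and 0 arms passed after centring.

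For the difference between the 5′ end 1 nt further in and the mature one, 13 d - 3 d was 2.96 for MIR26A1 and 3.76 for MIR26A2, and 31 d - 3 d was 3.73 and 4.46. For the shifted end of MIR26A2 by itself 31 d - 3 d was 2.59. Groups held 2 or 3 tables, so single tables were not tested as outliers.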

How the results depend on the processing

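Limma called 2 arms at 3 d, for 13 d - 3 d and for 31 d - 3 d. The shares of features called in the centred fits were not counted. Centring on all features left 0, 0 and 0. Centring on stacks of 20 to 24 nt left 0, 0 and 0 and called 1 at 31 d, the 5p arm of MIR26A2 at 1.10 (adjusted p 0.0244). Each day fitted alone, or a ratio above 0 required only in the tables of the day, gave 0 at 3 d. Leaving out 1 table at a time gave 0 to 4, 0 to 4 and 0 to 3 arms, and 0 at 13 d, at 31 d and for 31 d - 13 d. Of mature alignments limma called 1 in the same 3 comparisons. Both centrings gave 0 in each, leaving out both tables with the strongest length trend gave 0 for 13 d - 3 d, each day alone gave 0 at 3 d, and leaving out 1 table gave 0 to 1, 0 to 3 and 0 to 1, and 0 elsewhere. The cause was not tested.

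For the 5′ end difference, leaving out both length-trend tables gave 2.66 (limma adjusted p 0.141) for MIR26A1 and 3.58 (adjusted p 0.122) for MIR26A2 at 13 d - 3 d, no longer called. Leaving out 1 table at a time, MIR26A1 ranged from -0.80 to 0.36 at 3 d, 2.44 to 3.06 at 13 d, 3.22 to 3.71 at 31 d, 2.38 to 3.54 for 13 d - 3 d, 3.15 to 4.31 for 31 d - 3 d and 0.46 to 1.07 for 31 d - 13 d. MIR26A2 ranged from -1.58 to -0.24, 2.67 to 2.95, 3.27 to 3.77, 3.09 to 4.43, 3.79 to 5.13 and 0.42 to 0.92. The 11 differences by sign flips gave 0 calls under all their alternatives. For the 5′ end differences against MIR26B, only leaving out tables changed the values. The alternatives with other lengths, means or the mature alignment alone left them as they were, and no other 3′ end was tried. With 7 tables the smallest possible sign-flip p is 0.0156, and with fewer tables it is larger. A single difference at that p could not pass after adjustment over 11, so the runs that leave out tables could hardly give a call. Where 1 table of 3 d is left, it is assumed to vary like the others.

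Whether replicate numbers pair the tables was not tested. Same-numbered tables of different days had deviations correlated at -0.13 to 0.42, and differently numbered ones at -0.39 to 0.40. With the replicate block, arms called stayed at 2, 0, 0, 2, 2 and 0, mature alignments called at 3 d went from 1 to 0, the shifted end of MIR26A2 at 31 d - 3 d was 2.45 (limma adjusted p 0.0606), and the 5′ end difference at 31 d was 3.51 and 3.55. Reads per alignment were not used, so how far depth limits any value is unknown.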
